A study of Mus musculus with 5 samples.

Results

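The collagen genes of the mouse were followed through 5 Tag-seq libraries of the embryonic heart. Members are all genes of the reference whose symbol is Col, a number, a and a number, which gave 44 of 24303 genes. Tags were found for 35 of them in at least 1 library and for 9 in none. Tag-seq cuts cDNA at the NlaIII site CATG and counts the 17 bases that follow, so that each distinct 21-base sequence (a tag type) has a count, and a gene's level is the sum of the sense tags that match it alone. Levels are given as tags per 1000000 deposited tags (TPM). A tag count does not rise with transcript length, but it does depend on which sites are read, so levels of different genes are compared here only as tag counts.

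Hearts were dissected at embryonic day 10.5, Theiler stage 17. Wild type C57BL/6 embryos gave the atrioventricular canal (AVC), the outflow tract (OFT), the atria and the ventricles, and Twist1 null embryos on an ICR background gave a second AVC library, called the null here. The embryos of each library were pooled, 25 for the AVC and for the OFT, 20 for the atria and for the ventricles and 8 for the null, and there is 1 library per condition. Chambers had been punctured and washed to remove blood. The null differs from the wild-type AVC in strain as well as in genotype, and these cannot be told apart. No difference below has a replicate check, each test compares libraries rather than conditions, and in pooled tissue fewer cells of a type and less RNA per cell cannot be told apart.

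The libraries hold 4223810 to 12977237 tags. Tag types with fewer than 6 tags are not in the files, so a single tag type had to reach 0.988 TPM in AVC, 1.14 in OFT, 1.29 in atria, 1.42 in ventricles and 0.462 in the null to be seen. Haemoglobin took 0.242% of AVC tags, 0.307% of OFT tags, 21.5% of atrial tags, 4.67% of ventricular tags and 2.73% of null tags. The cardiomyocyte marker list had all 10 genes in every library, with summed levels from 8017 TPM in atria to 23826 TPM in OFT. The 10 markers of cushion mesenchyme (Twist1, Sox9, Msx1, Prrx1, Prrx2, Snai2, Postn, Tbx20, Pdgfra and Vcan) summed to 2585 TPM in AVC, 1718 in OFT, 234 in atria, 253 in ventricles and 796 in the null. Of these, Prrx1 and Snai2 had no listed tag in atria, and Prrx1 had none in ventricles. The other lists summed to 327 to 589 TPM for endothelial and endocardial markers, 78.8 to 280 for epicardium and 286 to 1343 for smooth muscle and second heart field, with Myh11 listed only in the AVC and Emcn not listed there.

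Collagens are trimers of alpha chains wound into a triple helix. Fibrillar collagens form the cables of loose and dense connective tissue, with type V setting fibril thickness. Cartilage collagens (II, IX and XI) form finer fibrils and also mark embryonic mesenchyme that is not yet cartilage. Basement membrane collagens, chiefly type IV, make the sheet under epithelium, endothelium and muscle, and FACIT collagens sit on fibril surfaces. At this stage the AVC and the OFT form the endocardial cushions, where endocardial cells become mesenchyme in a matrix-filled space. The chambers are mostly muscle lined by endocardium.

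The most abundant tag type is shown for 10 members that carry the comparisons. The sequences read 5′ to 3′ on the sense strand and are the ones found in the libraries, with the NlaIII site in capitals.
Col3a1: CATGtgttcatcttgttttaa
Col1a1: CATGgactttggaaaacattt
Col1a2: CATGgttccaaagaagtcttg
Col2a1: CATGgacattggaggggctga
Col9a3: CATGagataaaaacactcaag
Col9a2: CATGcctttcagcactgggcc
Col4a1: CATGgtgtctgataatgagcc
Col4a2: CATGgctctagccaaacccac
Col18a1: CATGaagcacttgtcctatga
Col23a1: CATGaaataccgctcagttgg

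These tags lie near the ends of their genes. On the build GRCm38 the Col3a1 tag is at chr1:45348788-45348808 on the plus strand and the Col1a1 tag at chr11:94951739-94951759 on the plus strand. The Col1a2 tag is at chr6:4541408-4541428 on the plus strand, the Col9a3 tag at chr2:180621711-180621731 on the plus strand and the Col9a2 tag at chr4:121055056-121055076 on the plus strand. The Col4a1 tag is at chr8:11198907-11198927 on the minus strand, the Col4a2 tag at chr8:11449080-11449100 on the plus strand, the Col18a1 tag at chr10:77052345-77052365 on the minus strand and the Col23a1 tag at chr11:51583756-51583776 on the plus strand. All of these are in the 3′ untranslated part of the last exon. The Col2a1 tag, at chr15:97976083-97976103 on the minus strand, is in the coding part of its last exon. Of the 113 collagen tag types in the libraries 80 are in 3′ untranslated sequence, 31 in coding sequence and 2 in 5′ untranslated sequence.

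Collagen tags made up a larger share of the cushion-forming regions than of the chambers. All collagen genes together gave 3442 TPM in AVC, 4648 in OFT, 905 in atria, 907 in ventricles and 1060 in the null. The AVC and the OFT were therefore high, and the 2 chambers and the null lay close together. Collagen genes with a listed tag numbered 32 in AVC, 27 in OFT, 23 in atria, 25 in ventricles and 30 in the null.

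The classes showed this pattern to different degrees. Fibrillar collagens summed to 1963 TPM in AVC (95% exact Poisson interval 1928 to 1999, counting error only), 2948 in OFT (2902 to 2995), 284 in atria (269 to 300), 288 in ventricles (272 to 305) and 333 in the null (323 to 343). Cartilage collagens summed to 393, 766, 24.0, 17.5 and 122 TPM in the same order of libraries. Basement membrane collagens summed to 990, 862, 521, 524 and 552 TPM. In the wild-type libraries the span between regions in plain TPM was widest for the cartilage class, where the OFT was 31.9 times the atria. It was narrower for the basement membrane class, where the AVC was 1.90 times the atria. Genes in general were also higher in the AVC on this scale, so this ratio does not set the class apart. On the scale of the tests below, 1 of 8 basement membrane members tested was higher in the AVC and 2 were lower. The basement membrane class held 28.8% of the collagen tags in AVC, 18.6% in OFT, 57.5% in atria, 57.8% in ventricles and 52.1% in the null. As grouped here, the remaining classes were small in every library. The type II, IX and XI genes are counted only with the cartilage class, so the fibrillar and FACIT sums leave them out. Beaded filament and short-chain collagens summed to between 10.1 TPM in the null and 42.5 TPM in AVC, FACIT collagens to between 3.00 TPM in atria and 24.5 TPM in OFT, and transmembrane collagens to between 13.7 TPM in OFT and 42.0 TPM in atria.

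**Figure D1:**
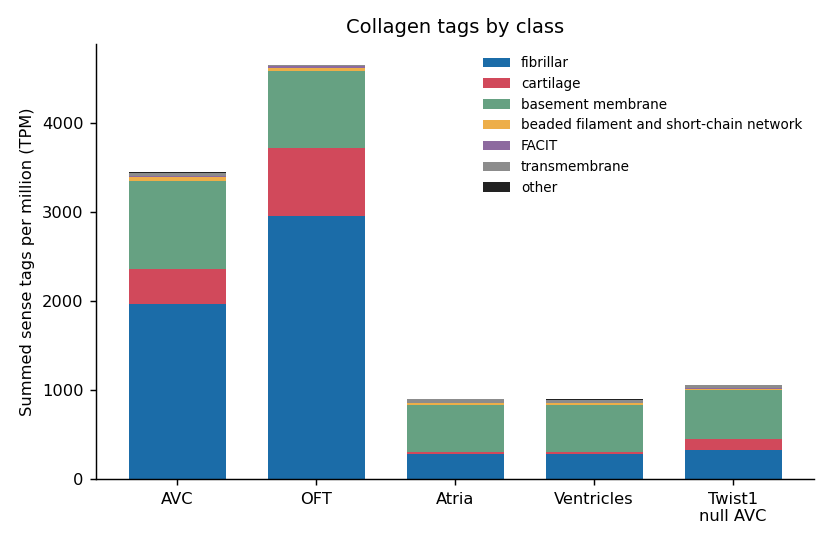
Summed sense tags in TPM (vertical axis) of the collagen classes in each of the 5 libraries, stacked by class. The AVC reached 3442 TPM and the OFT 4648 TPM, against 905 in atria, 907 in ventricles and 1060 in the null. The fibrillar, cartilage and basement membrane blocks are all smaller in the last 3 libraries. Levels are plain TPM, on which genes in general were also lower in the chambers than in the AVC and the OFT.

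Among fibrillar collagens, Col3a1, the chain of type III collagen of loose connective tissue, was the most abundant member in AVC, OFT and the null, and Col1a2 was in both chambers. Col3a1 had 1439 TPM in AVC, 2337 in OFT, 94.9 in atria, 109 in ventricles and 207 in the null. Col1a1, the chain present as a pair in type I collagen, had 162, 212, 28.5, 19.7 and 28.7 TPM in the same order. Col1a2, the other type I chain, had 235, 239, 126, 111 and 48.0 TPM. Both type I chains were high in the AVC and the OFT, but the atria and the ventricles kept more Col1a2 than Col1a1, and the null had the lowest Col1a2 of all libraries. Of the type V chains, Col5a1 had 65.2, 92.3, 5.36, 8.05 and 28.4 TPM. Col5a2 had 42.0, 51.1, 25.7, 38.4 and 17.95 TPM. Col27a1, a fibrillar collagen known from developing cartilage, had 17.1, 17.1, 3.64, 1.89 and 2.47 TPM. Col5a1 and Col27a1 followed the steep pattern of Col3a1, while Col5a2 spanned only 25.7 to 51.1 TPM across the wild-type libraries. Col24a1 and Col5a3 stayed under 1.5 TPM.

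Among cartilage collagens, Col2a1, the chain of the type II collagen of cartilage, had 212 TPM in AVC, 673 in OFT, no listed tag in atria, 6.63 in ventricles and 88.6 in the null. Type IX collagen is a trimer of Col9a1, Col9a2 and Col9a3 that coats type II fibrils. Col9a3 had 131, 42.5, 8.79, 2.60 and 11.9 TPM. Col9a1 had 22.5, 14.0, 3.00, 1.66 and 13.3 TPM. Col9a2 had 14.8 TPM in AVC and 17.5 in OFT, no listed tag in either chamber and 0.694 in the null, where it rested on 9 tags. The OFT was highest for Col2a1 and the AVC for Col9a3, and all 4 genes were low or not seen in the chambers. Col11a1 and Col11a2, the type XI chains, reached at most 18.6 and 2.30 TPM.

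Type IV collagen is built mainly from 2 Col4a1 chains and 1 Col4a2 chain. Col4a1 had 408, 382, 338, 354 and 177 TPM, a range of 338 to 408 among the wild-type regions. Most of this lay at its last NlaIII site, with 329, 304, 325, 345 and 154 TPM. Its tag type at the next site had 45.9, 37.6, 8.14, 3.08 and 8.25 TPM, and so was not even between the regions. Col4a2 had 216, 189, 58.5, 59.4 and 82.0 TPM. In plain TPM it was higher in the AVC and the OFT than in the chambers, a difference that was not called. Col18a1, the source of endostatin, had 281, 238, 91.3, 91.9 and 205 TPM. The X-linked neighbours Col4a5 and Col4a6 parted. Col4a5 had 53.8, 32.7, 2.36, 5.21 and 52.6 TPM, while Col4a6 had 27.2, 16.9, 22.9, 11.6 and 30.5 TPM. Rarer members were seen in some libraries and not in others. Col15a1, a multiplexin near basement membranes, had 3.99 TPM in OFT, 6.00 in atria and 1.31 in the null and no listed tag in AVC or the ventricles. Col7a1, the chain of anchoring fibrils, had 4.11 TPM in AVC, 2.14 in atria and 2.23 in the null and none in OFT or the ventricles. Col4a4 had 2.13 TPM in ventricles and 1.16 in the null and none elsewhere.

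The beaded filament chains of type VI collagen gave lower levels. Col6a1 had 19.1, 11.8, 23.6, 16.3 and 7.24 TPM. Col6a2, its partner, had 18.4, 8.35, 4.93, 1.66 and 2.85 TPM. Col6a3 was seen only in the AVC, at 1.81 TPM, and in the OFT, at 1.33 TPM. Of the short-chain collagens, Col8a1 had 9.11 TPM in OFT and 2.60 in ventricles, and Col8a2 had 1.98 in AVC and 1.89 in ventricles, with no listed tag in the other libraries. The values of Col6a3 and Col8a2, and that of Col6a2 in ventricles (7 tags), lie close to the level at which a tag type is listed.

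Among FACIT collagens, Col12a1 had 1.48 TPM in AVC, 12.5 in OFT, none listed in atria, 2.37 in ventricles and 1.39 in the null. Col16a1 had 7.74, 3.99, 3.00, 1.42 and 0.539 TPM. Col22a1, known from tissue junctions, had 5.60 TPM in AVC, 7.97 in OFT and 9.63 in the null and none in the chambers. The transmembrane collagens are single-pass membrane proteins whose helices face outward. Summed over its tag types, Col23a1 ran opposite to the fibrillar genes, with 7.90 TPM in AVC, 3.61 in OFT, 35.8 in atria, 28.4 in ventricles and 5.63 in the null. Col13a1 had 22.5, 10.1, 6.21, 9.23 and 20.3 TPM. Col26a1, which is in none of these classes, had 6.25, 2.66, 2.57, 13.3 and 3.08 TPM. The 6 members with tags that are not described one by one, Col11a1, Col11a2, Col24a1, Col25a1, Col5a3 and Col6a6, ranged up to 18.6 TPM. Col10a1, Col14a1, Col17a1, Col19a1, Col20a1, Col28a1, Col4a3, Col6a4 and Col6a5 had no listed tag of their own in any library.

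**Figure D2:**
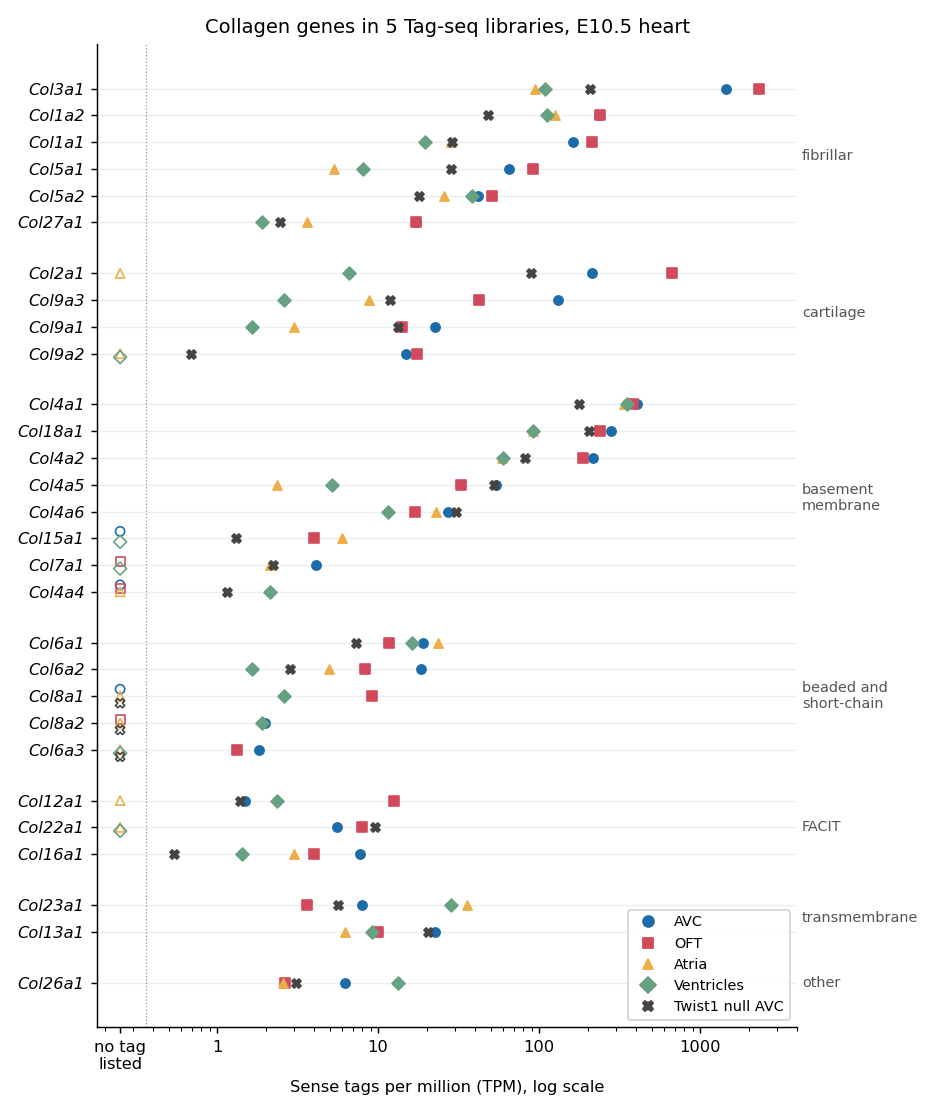
Sense tags in TPM (horizontal axis, log scale) of the 29 collagen genes that reached 20 TPM or were called in a comparison, by class, with 1 symbol per library. Open symbols at the left mark libraries with no listed tag. Col3a1 ranged from 94.9 to 2337 TPM, Col4a1 from 177 to 408 TPM, and Col23a1 was highest in the atria (35.8) and the ventricles (28.4).

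The AVC was compared with the summed atria and ventricles to ask which collagens the valve-forming region holds in excess. Changes are log2 ratios on a scale that puts the bulk of genes at no change (TMM). This lies 0.95 below the scale of plain TPM for the AVC and 0.86 below it for the OFT, in log2 units. A gene was called when the exact test with a fixed dispersion gave an adjusted p under 0.05, and the error given is the standard error that counting and that dispersion imply, with 1 library a side. Of the 35 members tested, 9 were higher in the AVC (25.7%, against 19.4% of all genes tested) and 4 were lower (11.4%, against 11.9%). The share lower was thus that of genes in general. Over the 25 members with tags on both sides the median log2 ratio was 0.67, beside 0.04 for all genes. Of the 10 cushion mesenchyme markers 7 were higher in the AVC, 6 were higher in the OFT, and all 6 erythroid markers were lower in both. Of 10 cardiomyocyte markers 5 were higher and 1 lower in the AVC and 3 were higher in the OFT, and of 9 endothelial and endocardial markers 2 (Cdh5 and Pecam1) were higher and 2 lower in each. Of 5 epicardial markers 1 was higher and 1 lower in the AVC, and 1 was higher and 4 lower in the OFT. Of 6 smooth muscle and second heart field markers none was called in the AVC and 3 were higher in the OFT. The part of these lists in the collagen values was not tested.

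By class, 4 of 6 cartilage members tested and 2 of 8 fibrillar members tested were higher in the AVC, and none of either class was lower. Col2a1 rose by a log2 ratio of 5.12 ± 0.76 (adjusted p = 6.07e-07), Col9a3 by 3.53 ± 0.74 (adjusted p = 2.23e-04) and Col9a1 by 2.30 ± 0.78 (adjusted p = 0.0204). At the last NlaIII site alone the latter 2 calls are lost, with Col9a3 at 0.31 (adjusted p = 0.826, 62 tags in AVC and 38 in the chambers) and Col9a1 at 1.36 (adjusted p = 0.189), and against the atria alone Col9a1 is not called (1.93, adjusted p = 0.0694). Col9a2, with 90 tags in AVC and none listed in the chambers, was at least 6.81-fold higher (adjusted p = 4.06e-06). Col3a1 rose by 2.87 ± 0.71 (adjusted p = 0.00172) and Col5a1 by 2.34 ± 0.73 (adjusted p = 0.0126). Col1a1 missed the threshold with 1.78 ± 0.72 (adjusted p = 0.0523) and Col1a2 was at 0.03 ± 0.71 (adjusted p = 0.993).

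In the basement membrane class only Col4a5 was called higher in the AVC, by 2.90 ± 0.75 (adjusted p = 0.00253), a call that is lost in both this comparison and that of the OFT without the tags that begin with T after the site, as its main tag type does. Col4a2 at 0.92 ± 0.71 and Col18a1 at 0.67 ± 0.71 were not called, nor was Col4a1, whose ratio of -0.71 ± 0.71 becomes 0.24 when libraries are scaled by their totals. Col23a1 fell by 2.98 on the log2 scale (SE 0.74, adjusted p = 0.00171). Its tag type shown above had 1.65 TPM in AVC, 26.1 in atria and 22.7 in ventricles. Its other tag type had 6.25, 9.64 and 5.68 TPM, and so was not lower in AVC than in ventricles. The calls for Col22a1 and Col6a3 (higher) and for Col15a1, Col4a4 and Col8a1 (lower) rest on 9 to 34 tags against none listed. With 5 tags put in for each missing tag type, the largest number that would go unlisted, all of these 5 calls are lost, and so are those of Col5a1 and Col9a1.

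**Figure D3:**
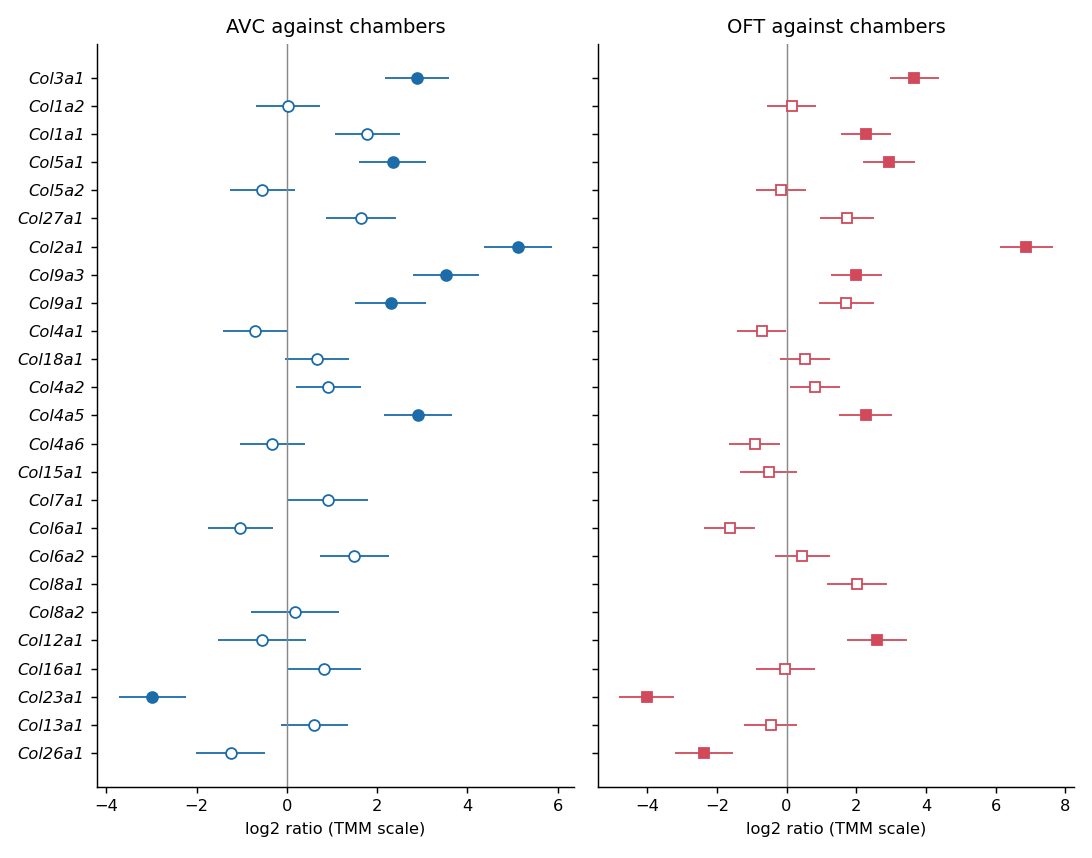
Log2 ratios (horizontal axis, TMM scale) of collagen genes with tags on both sides, for the AVC (left) and the OFT (right) against the summed chambers, with the standard error from counting and the fixed dispersion. Filled symbols passed the test. Col2a1 is farthest to the right in both panels (5.12 and 6.88) and Col23a1 farthest to the left (-2.98 and -4.01).

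In the OFT against the same summed chambers, 9 of 31 members tested were higher (29.0%, against 20% of all genes tested) and 3 were lower (9.68%, against 12.2%). The median over the 24 members with tags on both sides was 0.49, beside 0.02 for all genes. Both comparisons share the chamber libraries. Col2a1 rose by 6.88 ± 0.76 (adjusted p = 2.17e-10), Col3a1 by 3.67 ± 0.71 (adjusted p = 7.89e-05), Col5a1 by 2.94 ± 0.73 (adjusted p = 0.00175) and Col1a1 by 2.27 ± 0.71 (adjusted p = 0.0128). Counted at the last NlaIII site alone, on 39 and 17 tags, Col1a1 was at 1.13 and was not called (adjusted p = 0.297). Col9a2 was at least 8.58-fold higher (adjusted p = 1.81e-06).

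Col9a3 was higher in the OFT by 2.00 ± 0.74 (adjusted p = 0.0353), but its tag type at the last NlaIII site did not show this difference, with 4.37 TPM in OFT, 5.79 in atria, 2.60 in ventricles and 4.27 in the 2 chambers summed. Counted at that site alone, the log2 ratio is 0.03 in plain TPM and -0.78 on the TMM scale, which lies 0.82 lower for all genes at that setting, and it is not called. Against the atria alone the gene sum is not called either (1.39, adjusted p = 0.153). The sequence of the tag type, at chr2:180622129-180622149, is shown because it parts from the gene sum.
Col9a3 last site: CATGagactggaaataggggg

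Col12a1, a FACIT collagen of tendon and fascia, rose in the OFT by 2.61 ± 0.86 (adjusted p = 0.0134). Its 66 tags in the OFT and its 10 in the ventricles were of different tag types, each with none listed on the other side. Against the ventricles alone Col12a1 is not called (1.81, adjusted p = 0.0941). Col4a5 rose by 2.28 ± 0.76 (adjusted p = 0.0178). Col22a1, with 42 tags and none listed in the chambers, was at least 1.96-fold higher (adjusted p = 1.22e-04). Col23a1 fell by 4.01 (SE 0.79, adjusted p = 6.06e-05) and Col26a1 fell by 2.37 (SE 0.82, adjusted p = 0.0214). Col7a1 was called lower on 10 tags in atria against none listed in OFT. The calls of Col12a1, Col22a1, Col26a1, Col4a5, Col7a1 and Col9a3 are lost when missing tag types are given 5 tags. With a dispersion of 0.4 only Col2a1 and Col9a2 in the OFT and 1 member, Col9a2, in the AVC were still called against the chambers, and none in the comparisons that follow.

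The 2 chamber libraries that were summed were also set against each other. Between ventricles and atria 1 of 28 members tested was higher (3.57%, against 2.43% of all genes tested) and 1 was lower (3.57%, against 3.61%). Col2a1 was higher, with 28 tags against none listed, and Col15a1 lower, with none listed against 28. Taken against the ventricles alone the AVC had 13 members higher and 3 lower, and against the atria alone 7 and 2. The shares of all genes called in these tests are not given here, so these counts cannot be read as particular to the collagens. Col23a1 was at -0.65 ± 0.73 between ventricles and atria and was not called.

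The OFT and the AVC were compared directly to see whether both cushion-forming regions hold the same collagens. Of 34 members tested 3 were higher in the OFT (8.82%, against 1.25% of all genes tested) and 1 was lower (2.94%, against 1.84%). Col12a1 was higher by 3.14 ± 0.87 (adjusted p = 0.0286). Col8a1, a short-chain collagen of vessel walls, had 48 tags in OFT and none listed in AVC and was at least 5.86-fold higher (adjusted p = 6.28e-04). Col15a1 was at least 5.13-fold higher (adjusted p = 0.0165), with 21 tags against none. Col7a1 was at least 4.09-fold lower (adjusted p = 0.0165), with none listed against 25. Of 6 smooth muscle and second heart field markers 2 were higher in the OFT, Isl1 by 5.05 (2.30 TPM in AVC and 72.9 in OFT) and Rgs5 by 5.57 (3.95 and 178 TPM), and of the cardiomyocyte markers Nppa was lower. Their part in the collagen values was not tested. Of the collagens with the most tags, Col3a1, Col2a1 and Col9a3 did not pass the test here. Col3a1 was at 0.78 ± 0.71, Col2a1 at 1.75 ± 0.71 (adjusted p = 0.217) and Col9a3 at -1.54 ± 0.72 (adjusted p = 0.347). All 4 calls are lost when missing tag types are given 5 tags.

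The balance between partner chains moved with the region in their summed tags. A share within 1 library does not depend on how libraries are scaled, but it does depend on which NlaIII sites are read. At the last site of each gene, Col1a1 had 12 tags in AVC, 39 in OFT, 17 in atria and none listed in ventricles. Col1a2 had 1054, 896, 536 and 440 there, so at these sites the share of Col1a1 was not higher in AVC than in atria. Over all sites, Col1a1 made up 40.8% of the type I tags in AVC (95% Clopper-Pearson interval 38.8 to 42.7, counting error only) and 47.0% in OFT (45.0 to 49.0). It made up 18.4% in atria (15.7 to 21.4) and 15.0% in ventricles (12.1 to 18.3). In the null the share was 37.4% (34.4 to 40.5). Col5a1 followed the same course among the tags of Col5a1 and Col5a2, with 60.8% in AVC (56.96 to 64.6), 64.4% in OFT (60.8 to 67.8), 17.2% in atria (11.5 to 24.4), 17.3% in ventricles (12.3 to 23.4) and 61.2% in the null (57.2 to 65.1). With tag types 1 base away counted for both genes, among them the Col5a2 type described with the null, the share in the null is 47.2% (43.7 to 50.8) and that in atria 20.5% (14.4 to 27.9). The intervals of both pairs kept the 2 chambers apart from the other 3 libraries, with those tag types or without them for Col5a1. Col5a2 had no listed tag at its last NlaIII site, so this pair could not be set side by side there.

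Col4a1 went the other way. It held 65.4% of the Col4a1 and Col4a2 tags in AVC (63.9 to 66.9) and 66.9% in OFT (65.2 to 68.6), but 85.2% in atria (83.5 to 86.8) and 85.6% in ventricles (83.9 to 87.2). In the null it held 68.4% (66.8 to 69.9). The 2 genes lie head to head on chromosome 8 and their annotated RefSeq starts (GRCm38.p6) overlap by 22 bases, at chr8:11312805-11312826, shown on the Col4a2 strand.
Col4a1 and Col4a2 shared start: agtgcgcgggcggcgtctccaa

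Among the tags of Col6a1 and Col6a2, Col6a1 held 50.9% in AVC (44.2 to 57.5), 58.5% in OFT (48.5 to 68.0), 82.7% in atria (75.2 to 88.7), 90.8% in ventricles (81.9 to 96.2) and 71.8% in the null (63.2 to 79.3). Col9a2 held 10.2% of the Col9a2 and Col9a3 tags in AVC (8.26 to 12.4), 29.1% in OFT (24.2 to 34.5) and 5.52% in the null (2.56 to 10.2). It had no listed tag beside 41 Col9a3 tags in atria and 11 in ventricles. These shares depend on the sites, since Col9a2 was read only at its last NlaIII site. It had 90 tags there in AVC, 92 in OFT and 9 in the null. Col9a3 had 62, 23 and 32 at its own last site, fewer than Col9a2 in AVC and OFT. Col3a1 held 86.0% of the Col3a1 and Col1a2 tags in AVC, 90.7% in OFT, 42.9% in atria, 49.4% in ventricles and 81.1% in the null. At its last site Col3a1 had 219, 208, 37, 7 and 116 tags in the same order. Col1a2 had 1054, 896, 536, 440 and 475 at its own, so there Col1a2 had more in every library.

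**Figure D4:**
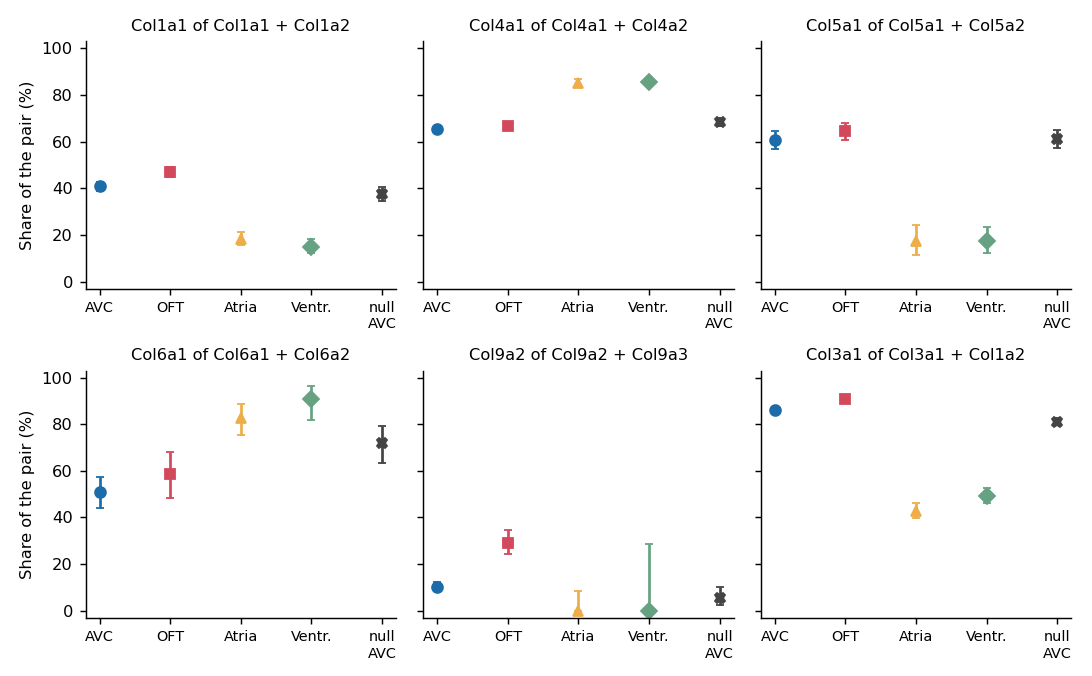
Share of the first chain in the tags of 2 partner chains (vertical axis, percent) in each of the 5 libraries, with 95% Clopper-Pearson intervals that cover counting error only. Col1a1 and Col5a1 are low in the atria and the ventricles (18.4% and 15.0%, 17.2% and 17.3%), and Col4a1 is high there (85.2% and 85.6%).

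Loss of Twist1, a basic helix-loop-helix transcription factor of cushion mesenchyme, was examined by setting the null against the wild-type AVC. Twist1 itself had 918 TPM in AVC, 299 in OFT, 63.4 in atria, 55.9 in ventricles and 4.55 in the null, and fell by 7.42 on the log2 scale (SE 0.73, adjusted p = 1.14e-10). Of 34 collagen genes tested 9 were lower in the null (26.5%, against 3.06% of all genes tested) and 1 was higher (2.94%, against 6.26%). Over the 28 members with tags in both libraries the median log2 ratio was -0.87, beside 0.01 for all genes. The cushion mesenchyme list was lower in the null as a whole (796 against 2585 TPM), though of its genes only Twist1 was called, and Twist1 gave the largest part of the drop. Pdgfra was level, at 35.2 TPM in AVC and 35.8 in the null. Of 6 erythroid markers 4 were higher in the null (Hbb-y by 4.93). Acta2, higher by 2.82, was the only call among 6 smooth muscle and second heart field markers. Emcn, higher with 35 tags against none listed, was the only call among 9 endothelial and endocardial markers. Myh6, lower at -2.98, was the only call among 10 cardiomyocyte markers. Over members with tags in both libraries, the median log2 ratios of these last lists were 0.65, 0.30 and -0.17 in turn. The part of these in the collagen values was not tested.

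The cartilage chains Col9a2 and Col9a3 fell by 4.15 (SE 0.87, adjusted p = 8.42e-04) and 3.22 (SE 0.72, adjusted p = 0.00260). Col9a2 had 90 tags in AVC and 9 in the null, at a total more than 2 times as large, and Col9a3 had 795 and 154. Col9a1 at -0.52 ± 0.73 and Col2a1 at -1.02 ± 0.71 (adjusted p = 0.397) were not called. Fibrillar Col3a1 fell by 2.56 (SE 0.71, adjusted p = 0.0160), Col27a1 fell by 2.55 (SE 0.76, adjusted p = 0.0261) and Col1a1 by 2.26 (SE 0.71, adjusted p = 0.0356). Col1a2 was at -2.05 ± 0.71 and missed the threshold (adjusted p = 0.0574). Col16a1 fell by 3.57 (SE 0.92, adjusted p = 0.00745) and Col6a2 by 2.45 (SE 0.76, adjusted p = 0.0321). At the last NlaIII site alone Col16a1 was at -2.55 and was not called (adjusted p = 0.0565), and Col3a1 was at -1.59 (adjusted p = 0.138).

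Col6a3 and Col8a2, with 11 and 12 tags in AVC, were not listed in the null, and Col15a1 was the gene called higher, with 17 tags in the null against none. Of the basement membrane collagens no other was called. Col4a5 was at 0.21 ± 0.71, Col4a6 at 0.41 ± 0.72, Col18a1 at -0.22 ± 0.71, Col4a1 at -0.97 ± 0.71 and Col4a2 at -1.16 ± 0.71. With 5 tags for each missing tag type, Col9a2 and Col9a3 remained called and the other 8 were not.

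**Figure D5:**
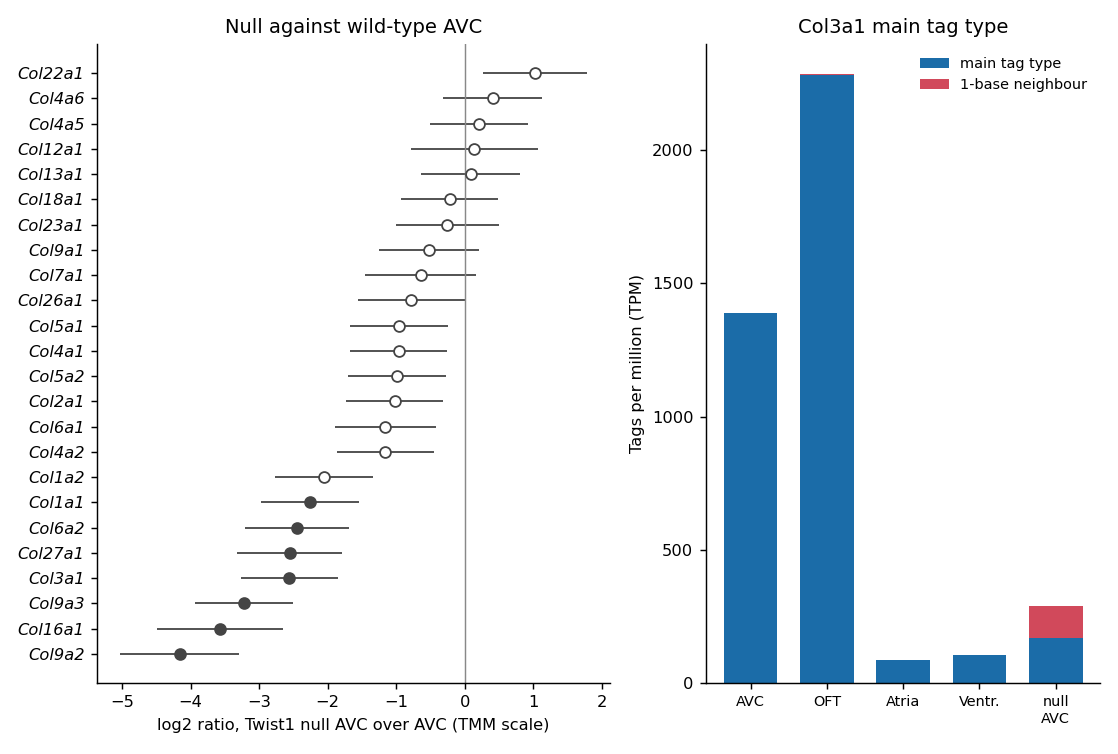
Left, log2 ratio of the null over the AVC (horizontal axis, TMM scale, with the standard error from counting and the fixed dispersion) for collagen genes with tags in both libraries, filled where called. Right, TPM of the main Col3a1 tag type and of the tag type 1 base away from it. Col9a2 lies lowest at -4.15, and the neighbour adds 123 TPM to the 168 TPM of the Col3a1 tag in the null, against 2.96 TPM in AVC.

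The Col3a1 value depends on a base that differs between the libraries. Its main tag type had 8429 tags in AVC, 12022 in OFT, 406 in atria, 439 in ventricles and 2176 in the null. A second tag type differs from it by T1C, counted from 1 at the first base after CATG with the base of the gene tag first. This one had 18, 13, 0, 0 and 1590 tags in the same order, so it made up 42.2% of the 2 tag types in the null and 0.213% in AVC. With this and all other unmatched tag types 1 base away counted with the gene, which in AVC adds 174 tags with T1G as well, Col3a1 in the null is at -1.93 (adjusted p = 0.0784), and the call is lost. Strain and genotype differ together between these libraries, and the source of the base was not tested.
Col3a1: CATGtgttcatcttgttttaa
Col3a1 T1C: CATGcgttcatcttgttttaa

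Col5a2 had a like case. A tag type that differs from its main one by A17G had 178 tags in the null and none listed in the other libraries, against 135 tags of the main type in the null. With it the ratio of Col5a2 in the null was -0.17 instead of -0.99, and neither was called. The calls of Col9a2 and Col9a3 held with such neighbours counted, at -4.16 and -3.23, though at the last NlaIII site alone Col9a3 was at -1.63 and was not called (adjusted p = 0.153).

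The main Col3a1 tag type begins with T after the site, and tags of this kind made up 13.6% of all tags in AVC and 32.4% in the null. Without them Col3a1 was at -1.58 (adjusted p = 0.169) on 245 tags in AVC and 116 in the null, and its call was lost. The calls of Col1a1 (-2.02, adjusted p = 0.0660), Col27a1 (-2.20, adjusted p = 0.0655) and Col6a2 (-2.10, adjusted p = 0.0757) were lost as well, though Col27a1 and Col6a2 have no tag of this kind and Col1a1 has 1.22% in AVC and 8.6% in the null, so that for Col27a1 and Col6a2 only the scaling and the set of genes tested moved. For Col1a1 the last NlaIII site showed little difference, with 1.98 TPM in AVC and 1.70 in the null. Counted there alone, on 12 and 22 tags, Col1a1 was at -0.22 in plain TPM and 0.19 on the TMM scale, and was not called.
Col1a1 last site: CATGtggaaatgacccaaaaa

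The 250 bases before the annotated start of Col3a1 (RefSeq, GRCm38.p6, chr1:45311288-45311537, plus strand) are shown because Col3a1 has the most tags of all members in AVC and OFT and was lower in the library without Twist1, whose family binds the E-box CANNTG. Each CANNTG is in capitals, and this palindromic pattern reads the same on both strands.
Col3a1 upstream: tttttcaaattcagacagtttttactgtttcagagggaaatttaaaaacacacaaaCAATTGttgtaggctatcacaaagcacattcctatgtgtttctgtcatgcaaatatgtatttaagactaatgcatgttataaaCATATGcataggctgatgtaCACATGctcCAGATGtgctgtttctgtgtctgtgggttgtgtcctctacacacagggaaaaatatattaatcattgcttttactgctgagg

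This window holds 4 matches, the most among the collagen windows, where the median over all windows was 1. Its share of G and C, 35.2%, is the lowest among the collagen windows. Such a match was found in 66.2% of the 32851 windows of this length in the table, and in 19 of the 38 windows of the 35 collagen genes with an entry. Among the members lower in the null, the windows of Col6a2, Col6a3 and Col8a2 held none, those of Col9a2 and Col27a1 held 1 each and that of Col16a1 held 2. Col1a1 and Col9a3, also lower in the null, had no entry. The window of Col15a1, called higher in the null, held 1, and that of Col1a2, not called, held none. A match is a description of these letters and not a site.

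The genes that fold, process and bind collagen were counted from lists chosen with earlier results known. Of 30 genes of folding and processing, 25 were tested in the AVC against the chambers, with 8 higher and 2 lower, and 26 in OFT, with 10 higher and 3 lower. Of all genes tested 19.4% were higher and 11.9% lower in the AVC, and 20% and 12.2% in the OFT, which applies to the next lists too. Serpinh1, the collagen chaperone, was lower in both. It had 1213 TPM in AVC, 1261 in OFT, 2318 in atria, 3258 in ventricles and 813 in the null, and fell by 2.14 in AVC (SE 0.71, adjusted p = 0.0181) while most collagen genes with calls rose. None of the 26 tested was called between the OFT and the AVC, where 1.25% of all genes were higher and 1.84% lower. Of 22 tested 3 were lower in the ventricles than in the atria (against 3.61% of all genes). In the null 1 of 26 was higher and 2 were lower (against 6.26% and 3.06% of all genes). Pcolce, an enhancer of procollagen cleavage, was one of the latter, with 202 TPM in AVC, 275 in OFT, 41.1 in atria, 34.6 in ventricles and 35.1 in the null, and fell by 2.29 (SE 0.71, adjusted p = 0.0336).

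Of 11 collagen receptors 4 were higher and 2 lower in the AVC, and the same counts were found in the OFT, with 9 tested in each, beside those same shares of all genes. Itgb1, the beta chain of the collagen-binding integrins, had 849 TPM in AVC, 912 in OFT, 53.4 in atria, 55.4 in ventricles and 552 in the null, and rose in the AVC by 3.01 ± 0.71 (adjusted p = 0.00112). None of 9 tested was called between the OFT and the AVC, where 1.25% of all genes were higher and 1.84% lower. None of 6 tested was called between ventricles and atria, where 2.43% of all genes were higher and 3.61% lower. Lists this short would rarely hold a call at such shares. In the null 1 of 8 was lower, against 3.06% of all genes. Of 12 basement membrane partners 6 were higher in the AVC and 7 in OFT, against 19.4% and 20% of all genes, and none was lower. Hspg2, the core protein of perlecan, had 131, 141, 9.64, 5.68 and 41.9 TPM and rose in the AVC by 3.12 ± 0.73 (adjusted p = 9.53e-04). In the null 2 of the 12 were lower, against 3.06% of all genes.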

How the data were processed

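Tag-seq libraries of 5 pools were used, 1 per condition. The deposited files hold the counts of reads per tag type, without normalization; reads had to pass the Chastity filter, the authors cut them to 21 bases, and tag types seen at least 6 times were kept. The genome build in the submitters' notes is mm9. Virtual tags were taken from every NlaIII site of 33363 RefSeq-linked transcripts of GENCODE M21 (GRCm38) with Python 3.11.15, and tags that match the sense strand of 1 gene were summed per gene. Tags of several genes, antisense tags and tags that match no transcript, such as those 1 base away from a gene tag, were left out of the genes but kept in the totals. Genes were compared with the exact test (two-sided) in edgeR 4.0.16 under R 4.3.3, with the dispersion fixed at 0.12, as in the study's methods, TMM factors on the totals, and Benjamini-Hochberg adjustment over all genes with a tag on either side. A gene is called at an adjusted p under 0.05. The script was tested on simulated data. With 1 library per group p-values measure only the assumed spread. Where a side has no tags, the fold is a bound that allows 5 unlisted tags per tag type and library. Members with 20 TPM in a library or a call are given with their values. Alternatives changed the scaling (DESeq2 1.42.0 size factors or plain totals), dispersion, adjustment, sites, tag types, fill, depth and chamber library. Members, lists and tests were chosen with earlier results of these data known, and counting neighbours 1 base away with the gene was added after seeing the data. 1 tag type that goes against its gene sum is not reported here on its own.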

Additional observations from a re-analysis of the deposited data

Results flagged for a closer look

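The difference between the OFT and the AVC was tested directly and passed for Col12a1 (adjusted p = 0.0286), Col15a1 (adjusted p = 0.0165), Col7a1 (adjusted p = 0.0165) and Col8a1 (adjusted p = 6.28e-04), by the exact test of edgeR with Benjamini-Hochberg adjustment. Of these, Col15a1, Col7a1 and Col8a1 were not listed at all in 1 of the 2 libraries.

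Tags on the antisense strand of collagen genes were outside the comparisons. They summed to 312 TPM in AVC, 431 in OFT, 124 in atria, 87.4 in ventricles and 109 in the null. This came to between 9.05% and 13.7% of the sense level of the collagen genes. Antisense tags of Col3a1 gave 108 TPM in AVC, 165 in OFT, 2.36 in atria, 2.84 in ventricles and 9.63 in the null, so that the AVC and the OFT lay far above the other 3 libraries. Antisense tags of Col1a2 were more even, with 72.6, 91.9, 80.6, 58.2 and 19.1 TPM. In the null the antisense tags of Col18a1, at 22.8 TPM, were the most abundant.

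Tag types 1 base from a collagen tag were also outside the gene counts. Positions count from 1 after CATG. The Col3a1 tag with T1C had 1590 tags in the null and that of Col5a2 with A17G had 178. In the OFT, Col2a1 had 740 tags with A17G, 107 with A17C and 124 with C14G, none of them listed in another library, and Col3a1 had 136 with T3G. In the AVC, Col3a1 had 174 with T1G, listed in no other library. What made these tags was not tested.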

How the results depend on the processing

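No paired analysis was possible because each condition has 1 library. Of 41 calls of single genes, 10 held in every alternative run or were lost only with a dispersion of 0.4. Counts of collagen genes called are given as higher and lower, beside 9 and 4 (AVC against chambers), 9 and 3 (OFT against chambers), 3 and 1 (OFT against AVC), 1 and 1 (ventricles against atria) and 1 and 9 (null against AVC). A dispersion of 0.4 left 1 and 0, 2 and 0, and 0 in both directions in the other 3 comparisons. A dispersion of 0.05 gave 7 lower in the OFT against chambers, 4 lower in the OFT against AVC, 4 and 3 between the chambers and 2 higher in the null. Unadjusted p gave 7 lower, 5 lower, 6 and 4, and 2 higher in the same places. With 5 tags for each missing tag type there were 5 and 1, 5 and 1, 0 and 0, 0 and 0, and 0 and 2. At least 50 tags per gene left 1 lower in the AVC against chambers, 0 and 0 in the OFT against AVC and between the chambers, and 0 higher in the null. Scaling by totals gave 14 higher in the AVC against chambers, 1 lower in the OFT against chambers and 0 higher in the null. Of all genes called it moved the share that was higher from 62.0 to 86.5% for the AVC against chambers, from 62.3 to 83.5% for the OFT, from 40.2 to 55.3% between the chambers and from 67.1 to 56.3% in the null. Thinned libraries gave 1 lower in the OFT against chambers, 1 and 0 in the OFT against AVC and 0 higher in the null. Without tags starting with T there was 1 higher in the OFT against AVC, 0 lower between the chambers, and 2 and 5 in the null. The last NlaIII site alone gave 2 lower between the chambers and 2 and 4 in the null, and there the sign turned for Col9a3 in the OFT against chambers (-0.78, adjusted p = 0.472) and Col1a1 in the null (0.19, adjusted p = 0.974). Both signs come from the TMM shift, since in plain TPM the log2 ratios at that site are 0.03 and -0.22, and neither is a call in the other direction. Against the atria alone 2 were lower in the AVC. Counting neighbours 1 base away gave 2 higher in the null. Size factors of DESeq2 and the removal of such neighbours changed no count by more than 1.5 times. Depth limits members near the listing level, for which 6 tags are the least that can be seen, and the null was read deepest.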
